A study of Mus musculus with 6 samples.

Results

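The 333 regions described here are sites of SALL4 signal in mouse embryonic stem cells that lie in or beside olfactory and vomeronasal receptor genes. A consensus region was a stretch covered by an interval of both wild-type peak lists (shared by at least 1 bp) and by no knockout interval. Those whose midpoint lay within 20 kb of a gene whose symbol starts with Olfr, Vmn1r or Vmn2r, or is Or plus a digit (0 symbols of the gene table), on chromosomes 1 to 19, were kept. They are 333 of the 36443 consensus regions on these chromosomes and of 37997 in all, so 36110 regions on the same chromosomes lie elsewhere. Either wild-type list covered 538 stretches at receptor genes, of which 333 (61.9%) were consensus regions, while 59.1% of all 61699 such stretches on these chromosomes were, so this share is near the background. The sequence within 20 kb of a receptor gene, called receptor chromatin below, spans 50.5 Mb, which is 2.11% of chromosomes 1 to 19 as covered by the lists.

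SALL4 was profiled by CUT&RUN, in which an antibody guides a nuclease to a protein in permeabilised cells and the released DNA fragments are sequenced. The cells, grown in 2i + LIF, were a floxed line (Sall4 F/F, whose alleles still carry Sall4 and which the titles call WT) and a knockout line (Sall4-/-). Each genotype was represented by 1 line, with 2 libraries made with the SALL4 antibody clone EE-30, and each list was called on 1 library. The labels number the 2 libraries as replicates without saying that they came from separate cultures, so the spread between them may be technical. The 2 IgG samples, 1 per line, were not analysed here.

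Olfactory and vomeronasal receptors are G-protein-coupled receptors that detect odorants and pheromones. Olfr genes encode the odorant receptors of the nose, while Vmn1r and Vmn2r genes encode the receptors of the vomeronasal organ, where Vmn1r neurons signal through Gnai2 and Vmn2r neurons through Gnao1. These genes form some of the largest gene families of the mouse genome, are mostly short, stand in clusters with few other genes, and are mostly silent outside sensory neurons. In the nose each neuron expresses a single receptor allele, a choice made through distant enhancers bound by Lhx2, Ldb1 and Ebf factors, while the other receptor genes sit in heterochromatin. SALL4 is a zinc-finger transcription factor of embryonic stem cells and germ cells, with a zinc-finger cluster that binds short A/T-rich DNA.

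Of 1264 receptor promoters in the RefSeq promoter table, 2 were overlapped by a region (0.158%, against 3.07% of all promoters of the table), and these are the sequences that bring the regions closest to a receptor start site. They are printed from the 250 bases before to the 50 bases after the start (RefSeq, GRCm38.p6), 5′ to 3′ on the strand of the gene. Beside them stands the promoter of Olfr73, an A/T-rich odorant receptor promoter with no region within 20 kb. Capitals mark every AATATT, which is its own reverse complement, and every ATATTA or its reverse complement TAATAT. These are A/T-rich hexamers searched on both strands, and AATATT overlaps TAATAT or ATATTA wherever TAATATT or AATATTA occurs.
Olfr27: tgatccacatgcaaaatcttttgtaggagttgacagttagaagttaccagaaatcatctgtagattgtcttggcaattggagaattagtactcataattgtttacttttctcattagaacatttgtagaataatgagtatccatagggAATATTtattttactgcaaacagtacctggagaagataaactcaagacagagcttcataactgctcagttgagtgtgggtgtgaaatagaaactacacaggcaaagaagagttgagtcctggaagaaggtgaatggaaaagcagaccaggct
Vmn1r77: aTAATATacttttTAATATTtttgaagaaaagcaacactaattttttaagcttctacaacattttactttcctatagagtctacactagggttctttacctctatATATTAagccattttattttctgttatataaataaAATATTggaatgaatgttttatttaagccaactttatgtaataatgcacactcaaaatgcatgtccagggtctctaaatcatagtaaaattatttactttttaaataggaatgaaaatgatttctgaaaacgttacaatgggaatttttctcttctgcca
Olfr73: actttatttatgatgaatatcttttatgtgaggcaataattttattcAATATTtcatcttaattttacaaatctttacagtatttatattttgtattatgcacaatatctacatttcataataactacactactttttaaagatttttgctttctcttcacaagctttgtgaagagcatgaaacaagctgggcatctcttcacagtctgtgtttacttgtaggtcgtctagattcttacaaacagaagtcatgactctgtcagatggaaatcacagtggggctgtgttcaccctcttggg
The Olfr27 promoter (chr9:39127917-39128216, + strand) has a G+C content of 37% and holds 1 AATATT. Its region, chr9:39127379-39127927, shares only the first 11 bases of the window and has a fold enrichment of 10.2 in wild-type replicate 1 and 12.9 in replicate 2. The Vmn1r77 promoter (chr7:12041049-12041348, + strand) has a G+C content of 25.7%, with 2 AATATT and 3 ATATTA or TAATAT matches. Its region, chr7:12040739-12041058, shares 10 bases with the window and is much weaker, at 4.06 and 4.02. So both overlaps take in the upstream edge of the window and leave the start site uncovered. The Olfr73 promoter (chr2:88035088-88035387, − strand), at 32.3% G+C and with 1 AATATT, shows that such letters also stand where no region was listed. Fold enrichment is the deposited ratio of the pileup of fragments at a summit to a local background, each with 1 added, as set by the authors' peak caller.

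At receptor genes, wild-type replicate 1 listed 479 intervals and replicate 2 listed 407, while the knockout replicates listed 0 and 0. The wild-type mean was 443 ± 50.9 intervals (SD, n = 2). A two-sided exact permutation test over the 4 libraries on the log2(number + 1) scale gave p = 0.333, the smallest value that 2 against 2 libraries allow, so it says nothing beyond the counts. With 0 in both knockout lists, the difference of 8.79 on that scale is the wild-type number itself against the pseudocount of 1. The rule that chose the regions used the same 4 lists. The knockout lists are nearly empty everywhere, with 34 and 39 intervals against 55058 and 48295, and none of theirs lie on chromosomes 1 to 19. The knockout intervals therefore removed no region from the set. The lists end at different strengths, the weakest deposited −log10 p being 3.55 and 3.605 for the wild-type replicates and 6.61 and 7.12 for the knockout replicates. With a common −log10 p of at least 8, the counts at receptor genes were 262, 234, 0 and 0. Pileups recovered from fold enrichment and p-value are low, with a median of 11 fragments at the summit of these regions in both wild-type lists and a range of 4 to 63 in replicate 1 and 4 to 67 in replicate 2. The lists do not give the number of fragments per library.

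SALL4 regions were sparse around receptor genes. Receptor chromatin held 6.59 regions per Mb, against 15.4 per Mb in the other 2344 Mb of chromosomes 1 to 19, a ratio of 0.428. Replicate 1 alone listed 9.48 intervals per Mb there and 22.3 elsewhere, and replicate 2 listed 8.05 and 19.6. The 2 ratios, 0.424 and 0.411 (mean 0.418, SD 0.00924, n = 2), lie far closer to each other than to 1. Regions covered 0.280% of receptor chromatin and 0.591% of the rest. Had the same number of regions on each chromosome been spread evenly over it, 763.9 would have fallen in receptor chromatin, so the observed 333 are 0.436 of that number. The observed number was under the even one on 16 of 19 chromosomes, and on 12 of the 14 chromosomes with at least 1 Mb of receptor chromatin.

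**Figure D1:**
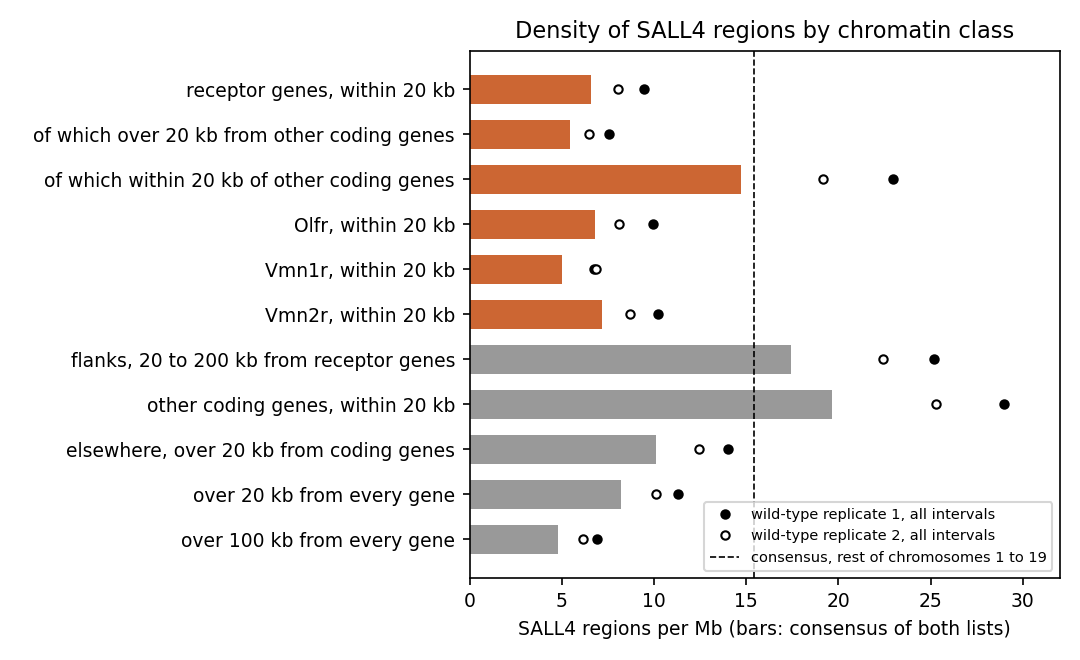
SALL4 regions per Mb (x axis) in classes of sequence on chromosomes 1 to 19 (y axis). Bars give the consensus of both wild-type lists, orange for receptor chromatin and grey for other sequence, filled and open circles give all intervals of replicates 1 and 2, and the dashed line marks 15.4 regions per Mb in the rest of the chromosomes. All bars of receptor chromatin lie below that line, the lowest being Vmn1r chromatin at 5.003, and sequence over 100 kb from every gene is lower still at 4.81.

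How sparse they were depended on the sequence set beside them, since outside receptor chromatin SALL4 regions were also fewer far from genes. Sequence within 20 kb of other protein-coding genes held 19.7 regions per Mb, and sequence elsewhere that was over 20 kb from any coding gene held 10.1. Only 12.5% of receptor chromatin lay within 20 kb of another coding gene, against 55.5% of the rest. In that small share, 6.32 Mb, there were 93 regions or 14.7 per Mb, below the 19.7 of sequence near other coding genes. The lists gave 22.96 and 19.2 intervals per Mb there, against 29.0 and 25.3 near other coding genes. The other 44.2 Mb held 240 regions, or 5.43 per Mb, which is 0.537 of the 10.1 in equally gene-poor sequence. Receptor chromatin was at 0.803 of the density in the 626 Mb over 20 kb from every annotated gene of any type (8.21 per Mb). It was denser, by a ratio of 1.37, than the 181 Mb over 100 kb from every gene, which held 871 regions or 4.81 per Mb. Both ratios take in the receptor chromatin near other coding genes. Without that share, the 5.43 per Mb of the other 44.2 Mb lay below 8.21 and only a little above 4.81. Replicates 1 and 2 listed 7.55 and 6.47 intervals per Mb there, against 6.89 and 6.13 over 100 kb from every gene. Sequence a little farther from receptor genes, within or outside the clusters, was not sparse: flanks at 20 to 200 kb from a receptor gene held 17.4 per Mb, and 12.9 per Mb in the 17.4 Mb of them that is over 20 kb from coding genes. The part of base composition and of stretches to which reads cannot be placed was not tested, since no sequence outside promoters was used.

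Density fell stepwise toward receptor genes and rose toward other genes. At 100 to 200 kb from the nearest receptor gene there were 18.9 regions per Mb, and 17.9 at 50 to 100 kb. It was 14.7 at 20 to 50 kb, 9.45 at 10 to 20 kb and 6.84 at 5 to 10 kb. The lowest value, 3.004 per Mb, lay in the 1 kb next to a gene and came from 12 regions, beside 4.49 inside the genes themselves. Around other coding genes the order was the opposite: 10.1 per Mb at 100 to 200 kb, 19.6 at 10 to 20 kb and a peak of 33.5 in the first 1 kb. Both lists were low near receptor genes and high near other coding genes, with 7.51 and 3.76 intervals per Mb in the first 1 kb of the former against 50.7 and 43.7 in that of the latter. Which bin was lowest differed between them: replicate 1 had 6.36 per Mb inside receptor genes, below its first 1 kb, and replicate 2 had 4.99.

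**Figure D2:**
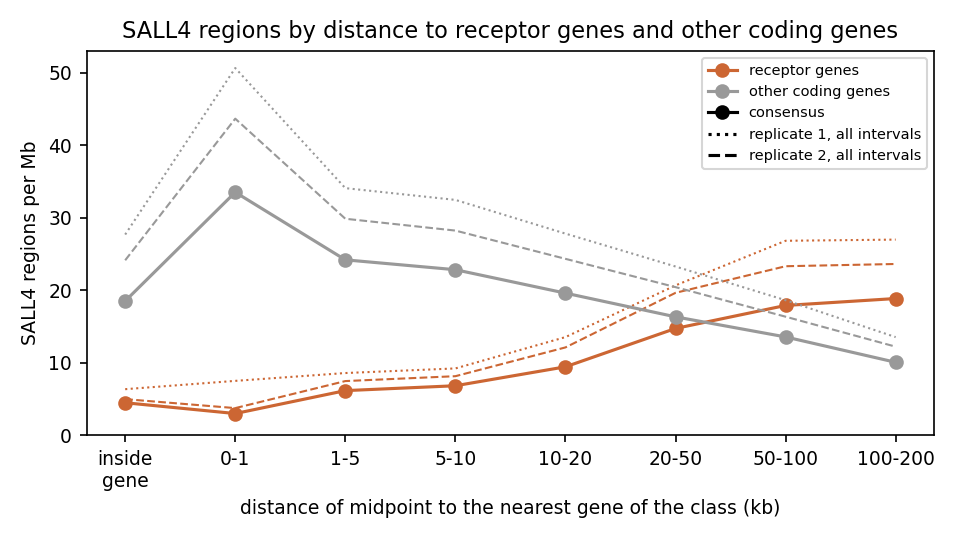
SALL4 regions per Mb (y axis) by the distance of the region's midpoint to the nearest gene of each class (x axis, kb), orange for receptor genes and grey for other coding genes. Solid lines with circles give the consensus and dotted and dashed lines give all intervals of wild-type replicates 1 and 2; the lines meet between 20 and 100 kb, and the orange line falls to 3.004 per Mb within 1 kb of receptor genes while the grey line rises to 33.5.

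Among the families, Vmn1r chromatin was the emptiest. Sequence within 20 kb of Olfr genes (28.8 Mb) held 195 regions or 6.77 per Mb, against 450.7 for an even spread. Vmn1r sequence (9.19 Mb) held 46 regions or 5.003 per Mb, against 132.9. Vmn2r sequence (12.8 Mb) held 92 regions or 7.19 per Mb, against 183.9. Vmn1r chromatin was the lowest in each list too, with 6.74 and 6.85 intervals per Mb in replicates 1 and 2, against 9.94 and 8.10 for Olfr and 10.2 and 8.67 for Vmn2r. It pools unlike clusters, described below. The Vmn1r91 to Vmn1r183 array made up 2.80 Mb of it, with 5 regions. A mostly Vmn1r cluster on chromosome 13 held 27 regions in 1.56 Mb of receptor chromatin. Away from other coding genes the families stood at 6.11 (Olfr), 3.90 (Vmn1r) and 4.90 (Vmn2r) per Mb, so the family with the most regions per Mb in all of its chromatin, Vmn2r, was not the highest there. Sequence around receptor pseudogenes that is over 20 kb from any coding receptor gene (8.99 Mb) held 84 regions, or 9.34 per Mb, against 5.99 around coding receptor genes. This sequence was not split by distance to other coding genes. Gene by gene, 16.1% of receptor pseudogenes and 18.1% of coding receptor genes had a region within 20 kb.

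Most regions stood between the receptor genes. A midpoint lay inside a receptor gene for 36 of 333 (10.8%), while receptor genes fill 15.9% of receptor chromatin. Another 101 (30.3%) lay up to 5 kb away, 83 (24.9%) from 5 to 10 kb, and 113 (33.9%) from 10 to 20 kb. Of the 36 inside a gene, 31 were in Vmn2r genes, whose bodies are long (median 16152 bp) and held 6.05 regions per Mb. Olfr bodies, with a median length of 945 bp, held 4 regions in 2.43 Mb (1.64 per Mb), and Vmn1r bodies 1 region in 0.457 Mb. Bodies of other coding genes held 18.5 per Mb. The gene table used gives no exons, so exonic and intronic positions are not told apart.

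Receptor genes less than 500 kb apart were joined into clusters. The 49 clusters of at least 5 genes contain 1946 receptor genes and 291 of the regions, at 6.16 per Mb. Density was below the 15.4 per Mb of the rest in 42 of these 49 clusters, and below each list's own value for the rest in 43 in both lists; 4 clusters held no region. The median cluster had 5.48 per Mb and the highest 23.0. Sequence within 50 kb of a cluster's ends held 11.7 per Mb and the interior 5.31. The 77 receptor genes in groups of fewer than 5 had 42 regions at 12.7 per Mb, and the 35 genes with no receptor gene within 500 kb had 22 at 14.0. So density was lowest in the interior of clusters and nearest to that of the rest around lone receptor genes. These groups were not split by distance to other coding genes, and the part of that distance was not tested. Across the 49 clusters, interval density in the 2 lists ranked alike (Spearman's rho 0.923, a description over clusters that share both libraries). Consensus density hardly ranked with the share of a cluster near other coding genes (rho 0.0012) and weakly with receptor genes per Mb (rho 0.183).

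**Figure D3:**
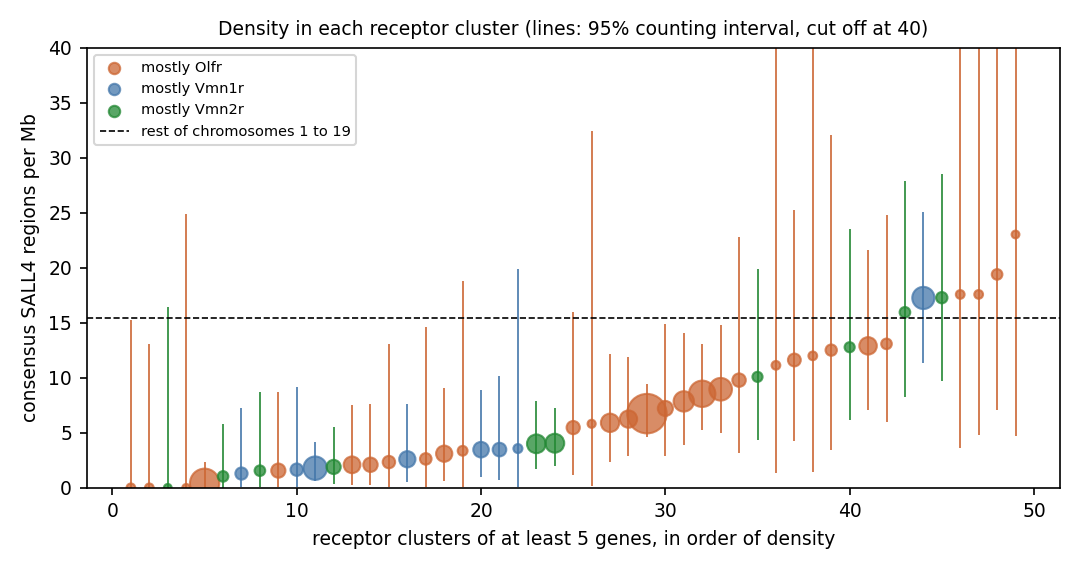
Consensus SALL4 regions per Mb (y axis) in each of the 49 receptor clusters of at least 5 genes, in order of density (x axis). Circle area grows with the number of genes, colour gives the most frequent family, vertical lines are exact 95% Poisson counting intervals drawn up to 40, and the dashed line marks 15.4 per Mb; 42 clusters lie below it and the clusters above it include small ones with wide intervals.

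The clusters differed widely among themselves. The largest, Olfr987 to Olfr1274 (chr2:85330967-90401674), has 293 odorant receptor genes and held 33 regions at 6.74 per Mb (exact 95% Poisson interval 4.64 to 9.47), with 44 and 40 intervals in the 2 lists. The second largest, Olfr543 to Olfr692 (chr7:102476773-105369317), has 158 genes in 2.40 Mb of receptor chromatin and held a single region, 0.417 per Mb (0.0106 to 2.32), with 5 and 2 intervals. Such Poisson intervals take in no error beyond that of counting. A stretch of 1.27 Mb with 80 receptor genes inside that cluster has no region at all. The 2 largest odorant receptor clusters thus differed in both lists. The larger had 8.99 and 8.17 intervals per Mb, and the other 2.08 and 0.834. Of 316 pairs of neighbouring receptor regions in all, 79 lay within 5 kb. Counting intervals treat regions as independent, so they are too narrow to set clusters apart.

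Olfr160 to Olfr986 (chr9:37711348-40188094, 127 genes) held 21 regions at 8.55 per Mb (5.29 to 13.1), with 28 and 23 intervals. Olfr1417 to Vmn2r-ps135 (chr19:11828077-13939288, 92 genes) held 15 at 8.96 per Mb, with 28 and 22 intervals, although 1.01 Mb of it with 51 receptor genes was bare. Of these 15 regions, 7 lay over 20 kb from other coding genes, at 4.64 per Mb. Vmn1r91 to Vmn1r183 (chr7:20101158-24055691), an array of 99 Vmn1r genes, held 5 regions at 1.79 per Mb (0.580 to 4.17), with 5 and 6 intervals. All 5 lay at its far end, leaving 3.37 Mb with 81 receptor genes empty. In that array 91.6% of 83 promoters share an exact 50-base stretch with another promoter of the table, against 11.0% of 109 in the similarly empty Olfr543 to Olfr692 cluster and 15.5% in Olfr987 to Olfr1274. Near-identical copies are where short reads are hard to place, and how multiply placed reads were treated is not given in the sources used here; the part of this in the empty array was not tested.

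At the other end of the range, Olfr211 to Olfr215 on chromosome 6 (5 genes) held 3 regions at 23.0 per Mb (4.75 to 67.3). Olfr62 to Olfr1328 on chromosome 4 (15 genes) held 6 at 19.4 (7.12 to 42.2), and Olfr221 to Olfr1507 on chromosome 14 (8 genes) held 4 at 17.6 (4.79 to 45.0). Their counting intervals all include the 15.4 per Mb of the rest. A large cluster also stood high: Olfr1370 to Vmn1r-ps135 (chr13:21072349-23269501, 88 genes, 75 of them Vmn1r) held 27 regions at 17.3 per Mb (11.4 to 25.1), with 33 intervals in each list. Of these, 18 lay over 20 kb from other coding genes, at 13.0 per Mb. Vmn2r-ps3 to Vmn2r-ps13 on chromosome 3 (18 genes, 11 of them pseudogenes) held 15 at 17.3 per Mb (9.67 to 28.5). These 2 were singled out after their values were seen. Among the 27 clusters of at least 20 genes, 26 lay below the rest, the exception being the chromosome 13 cluster.

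The lowest clusters with any region were, after Olfr543 to Olfr692, Vmn2r57 to Vmn2r126 with 1 region (1.04 per Mb) and Vmn2r-ps50 to Vmn1r71 with 1 (1.30 per Mb), all on chromosome 7. The clusters without a region are small: Olfr16 to Olfr418 on chromosome 1 (8 genes), Vmn2r-ps25 to Vmn2r-ps28 on chromosome 5 (5 genes), and Vmn1r-ps138 to Olfr15 (5 genes) and Olfr164 to Olfr171 (8 genes) on chromosome 16. Chromosome 7 holds 569 of the receptor genes and 14.9 Mb of receptor chromatin, with 54 regions against 188.1 for an even spread (3.62 per Mb, and 13.7 in the rest of that chromosome). Without chromosome 7 the overall ratio of receptor chromatin to the rest was 0.505 in place of 0.428. On chromosomes 3, 5 and 8 the number was above the even one, with 20 regions against 14.1, 17 against 16.4 and 6 against 4.79.

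**Figure D4:**
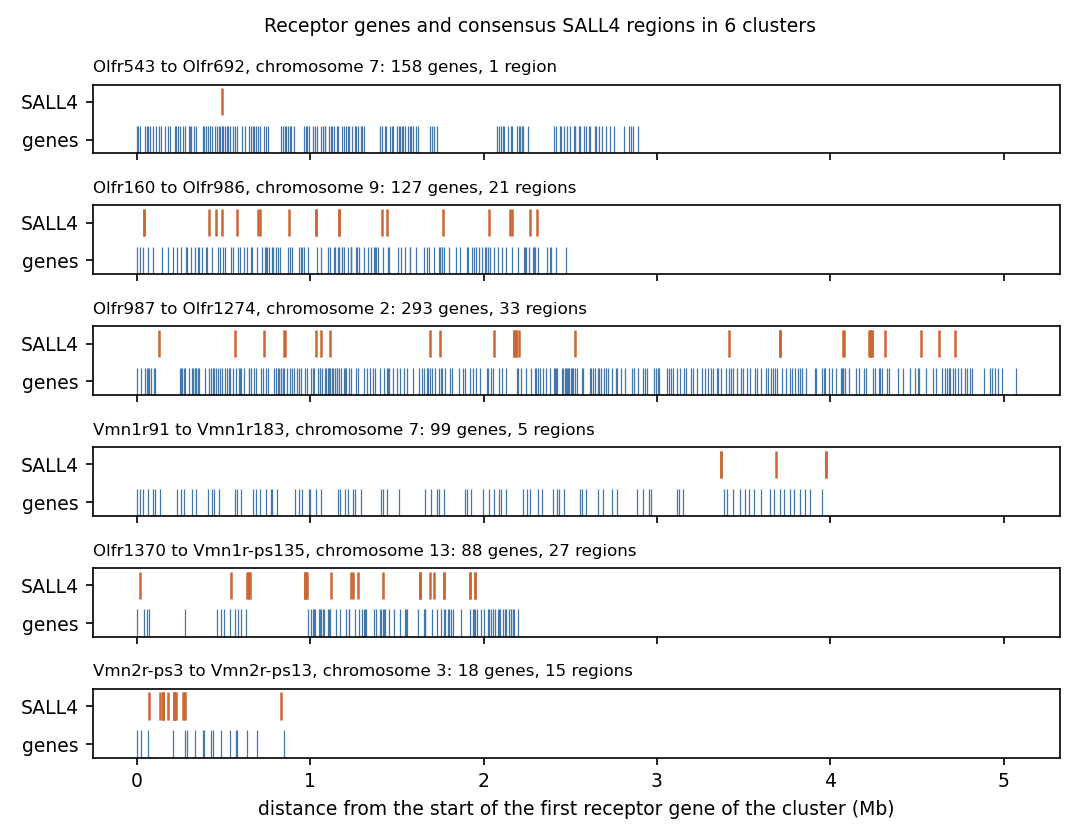
Receptor genes (blue) and consensus SALL4 regions (orange) along 6 clusters, drawn to scale as distance from the start of the first receptor gene (x axis, Mb). The Olfr543 to Olfr692 cluster has 1 region among 158 genes and the Vmn1r91 to Vmn1r183 array has 5, all near its far end, while the chromosome 13 and chromosome 3 clusters have 27 and 15.

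Some regions in receptor clusters were among the strong sites of the genome. By the worse of its ranks in the 2 lists, the leading region was chr3:64321614-64322410 (797 bp), 10101 bp from the pseudogene Vmn2r-ps4. Its fold enrichment was 30.5 and 30.02, with pileups of 47 and 47 fragments and ranks of 340 and 255 among all intervals of each list. A region of 913 bp at chr9:38407262-38408174, 3889 bp from Olfr147, had 33.1 and 28.6. A region of 972 bp at chr7:106760805-106761776, 7905 bp from Olfr698, had 29.1 and 28.0. None of these 3 has another coding gene within 100 kb, so they are sites internal to receptor clusters.

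The remaining 7 of the strongest 10 were of similar height. Near Olfr1425 (3908 bp away), chr19:12069356-12070217 had 26.2 and 33.3. Near Vmn2r-ps108, chr13:66823250-66823445 reached 26.9 and 24.5 in only 196 bp, the narrowest of the 10. Near Olfr289-ps1 (16314 bp away), chr3:6767876-6768895 had 26.9 and 23.1, and near Olfr307, chr7:86343054-86343723 had 24.1 and 21.8. All 4 lay over 20 kb from other coding genes. Another 2 of the 10 stood beside genes of other kinds: chr17:37078880-37079420 (24.1 and 25.8), 6041 bp from Olfr90 and 4845 bp from Gabbr1, a GABA-B receptor subunit gene, and chr5:109557693-109558774 (28.5 and 21.7), near Vmn2r-ps22 but inside Crlf2, a cytokine receptor gene. The last, chr10:130419301-130420754, lay inside Vmn2r85 and had 23.9 and 27.9. By the better of their ranks, the 5 lowest regions, near Olfr1359, Vmn2r-ps20, Olfr484, Olfr540-ps1 and Olfr913, had fold enrichments of 2.99 to 4.06 in replicate 1 and 3.36 to 3.4 in replicate 2.

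Of the 38 regions that overlapped a receptor gene, the leading 10 were mostly in Vmn2r genes. Besides the Vmn2r85 region, chr5:109096082-109097090 in Vmn2r12 (1009 bp) had 22.7 and 23.1, and chr6:123810097-123810821 in Vmn2r24 (725 bp) had 18.3 and 22.0. Vmn2r3 carried 2 of the 10, chr3:64265654-64266726 (18.8 and 16.1) and chr3:64272597-64273057 (18.6 and 12.2). Vmn2r1 carried chr3:64205154-64205634 (19.97 and 17). The others overlapped Vmn1r-ps114 (16.3 and 19.3), Vmn2r-ps54 (14.2 and 13.6), Vmn2r19 (13.2 and 13.0) and Olfr1498-ps1 (13.1 and 11.6). The last tied with a region in Vmn2r-ps87 (15.2 and 11.6) on the worse rank, so the tenth place is shared.

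As to width, the regions at receptor genes were slightly wider than all others pooled, but not wider than those over 100 kb from every gene. Their median was 356 bp (quartiles 247 and 541, range 112 to 1509) against 326 bp (236 and 464) elsewhere, and against 343 bp elsewhere over 20 kb from coding genes. It was 352 bp in sequence over 20 kb from every gene and 373 bp over 100 kb from every gene. In the lists' own intervals at consensus regions the medians were 321 against 278 bp in replicate 1 and 307 against 266 bp in replicate 2. Over all intervals of each list the gap was smaller, with 234 against 219 bp and 250 against 228 bp. Width rises with fold enrichment, and within quartiles of mean fold enrichment over all regions the gap was absent in the weakest quartile (236 against 235 bp) and present in the next 3, at 315 against 276, 381 against 351 and 604.5 against 536 bp. Against gene-poor regions of the same quartile the gap was smaller in the upper quartiles, with 357 and 560 bp there. Regions of at least 800 bp were 25 of 333 (7.51%, Wilson 95% interval 5.14 to 10.8) and 1925 of 36110 elsewhere (5.33%, 5.10 to 5.57), but 7.09% and 8.04% over 20 and 100 kb from every gene. The 5 widest were 2 of 1509 bp near Olfr1127-ps1 (24.8 and 16.3) and Olfr519 (21.4 and 13.6), the Vmn2r85 region of 1454 bp, 1 of 1170 bp near Vmn1r-ps92 and 800 bp from the histone gene H4c9 (8.11 and 7.48), and 1 of 1091 bp near Vmn2r90 (9.58 and 10.008).

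**Figure D5:**
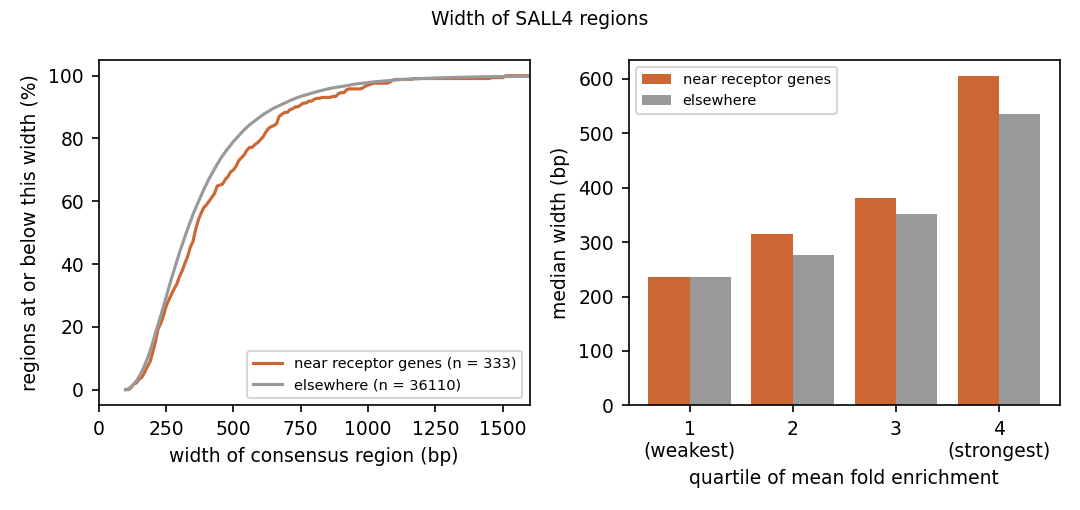
Left, share of consensus regions at or below a given width (y axis, percent; x axis, bp, shown up to 1600) for the 333 regions near receptor genes (orange) and the 36110 elsewhere (grey). Right, median width (bp) in quartiles of mean fold enrichment; the bars are level in the weakest quartile and the orange bar is higher in the other 3, up to 604.5 against 536 bp.

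Fold enrichment in the receptor regions was slightly above that of all others and level with that of gene-poor sequence. Median fold enrichment was 7.58 against 7.11 in replicate 1 and 6.88 against 6.54 in replicate 2, and the median of the local background was 0.452 against 0.479 and 0.471 against 0.499 fragments. The leading 10% of each list's intervals by fold enrichment took in 16.2% of these regions in replicate 1 and 14.1% in replicate 2, against 14.5% and 12.8% of the regions elsewhere. In regions elsewhere over 20 kb from coding genes the medians were 7.58 and 6.80 and these shares 16.6% and 14.9%. An interval at a receptor gene was found again about as often as others. In replicate 1, 343 of 479 (71.6%, Wilson 95% interval 67.4 to 75.5) met an interval of replicate 2, against 70.3% elsewhere, and in replicate 2, 338 of 407 (83.0%, 79.1 to 86.4) met one of replicate 1, against 79.3%. Stretches at receptor genes listed in 1 wild-type library alone numbered 136 in replicate 1 and 69 in replicate 2. So the regions at receptor genes were fewer per Mb, while their medians of fold enrichment and their shares found again were no lower than those elsewhere.

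The gene table holds 2043 receptor genes on these chromosomes (1420 Olfr, 372 Vmn1r and 251 Vmn2r), of which 584 are pseudogenes and 20 lie outside the sequence the lists span. Seen gene by gene, 355 of the other 2023 receptor genes (17.5%, Wilson 95% interval 16.0 to 19.3) had a region within 20 kb, against 10549 of 18996 other coding genes (55.5%). Over all 20447 protein-coding genes the share was 52.9%. By family it was 257 of 1418 Olfr genes (18.1%), 48 of 358 Vmn1r genes (13.4%) and 50 of 247 Vmn2r genes (20.2%). Coding receptor genes (263 of 1451, 18.1%) and receptor pseudogenes (92 of 571, 16.1%) differed little. Among genes of at most 10 kb, to set short receptor genes beside short genes, the shares were 17.1% of 1837 receptor genes and 39.4% of 5913 other coding genes. Neighbouring receptor genes share regions, so these intervals, which treat genes as independent, are too narrow. The most regions near 1 receptor gene was 6, at Olfr1245, Vmn2r-ps23 and Vmn2r1.

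Of 13 well-studied receptor genes listed by name, 2 had a region (15.4%, near the 17.5% of all receptor genes). Vmn2r1 (chr3:64078172-64220847), an atypical Vmn2r gene expressed together with other Vmn2r genes in vomeronasal neurons, had 6 regions, with a highest fold enrichment of 19.97 and 17. Vmn2r26 had 1, at 11.7 and 6.80. The nearest region lay 110 kb from Olfr17 (the P2 receptor), 294 kb from Olfr16 (MOR23), 208 kb from Olfr78, a receptor also used by oxygen-sensing carotid body cells, and 147 kb from Vmn2r116, which detects the peptide pheromone ESP1. Olfr73, Olfr2 and Olfr1507 had their nearest region at 174, 205 and 157 kb, and Vmn1r49 and Vmn1r51 at 212 and 263 kb. Olfr151 (M71) and Olfr160 (M72) lay nearer, at 20.2 and 39.0 kb, and replicate 1 alone listed an interval of fold enrichment 4.82 within 20 kb of both. The table gives Olfr151 as a transcribed pseudogene.

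Start sites of receptor genes were almost free of SALL4 regions. Regions overlapped 2 of 1264 receptor promoters (0.158%, Wilson 95% interval 0.0434 to 0.575), 666 of 18820 promoters of other coding genes (3.54%) and 964 of all 31396 promoters. A midpoint lay within 1 kb of 7 receptor starts (0.554%), against 6.05% of other coding starts, and within 20 kb of 16.5% (14.6 to 18.7) against 42.0% (41.3 to 42.7). Beside Vmn1r77 (400 bp upstream) and Olfr27 (514 bp upstream), the 7 were Vmn1r86 (720 bp upstream, 4.53 and 3.34), Olfr52 (823 bp upstream, 12.2 and 5.04), Vmn2r86 (910 bp upstream, 9.15 and 8.05), Vmn2r85 (957 bp upstream, 12.7 and 11.9) and Olfr13 (910 bp downstream, 7.58 and 4.76).

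Receptor promoters were A/T-rich, with a median G+C content of 35.7% against 57.7% at other coding genes. AATATT stood in 30.1% of receptor promoters, with 30.4% for Olfr, 34.5% for Vmn1r and 20.7% for Vmn2r, against 4.27% at other coding genes and 6.72% of all promoters. ATATTA, or its reverse complement, stood in 33.1%, 4.62% and 7.33%. Other coding promoters of at most 39.3% G+C, the upper quartile of receptor promoters, held AATATT in 25.8% and ATATTA in 28.5%, close to the receptor shares. Of these 712 A/T-rich promoters 19 were overlapped by a region (2.67%, 1.71 to 4.13) and 30.3% (27.1 to 33.8) had one within 20 kb, both above the receptor promoters' 0.158% and 16.5%. Within receptor promoters, 18.2% (15.9 to 20.8) of those that share no exact 50-base stretch with another promoter had a region within 20 kb, and 11.4% (8.34 to 15.4) of those that share one. Shared stretches stood in 25% of receptor promoters and 18.2% of other coding promoters. Both groups of receptor promoters lay under the 43.1% and 36.9% of other coding promoters split in the same way. Shared stretches were sought in the promoters alone, not in the 20 kb around them. The part of base composition and of read placement in these differences was not tested.

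Genes that serve these receptors were looked at in the same way. Of 26 listed genes of olfactory and vomeronasal signalling and receptor choice, 15 (57.7%) had a region within 20 kb, near the 55.5% of other coding genes; Cnga2, on chromosome X, is the only listed gene outside chromosomes 1 to 19, to which the 55.5% refers. Among regulators, Ebf1, a long gene whose product binds receptor enhancers, had 26 regions in it or within 20 kb (highest fold enrichment 27.1 and 26.5), Meis2 had 19 (19.97 and 17) and Kdm1a, a histone demethylase needed for receptor choice, had 5 (10.3 and 11.1). Ebf3 had 2, Ldb1, Lbr and Atf5 had 1 each, and Lhx2, Ebf2, Emx2, Bcl11b and Tfap2e had 0. Among signalling genes, Cnga4, a subunit of the olfactory transduction channel, had 3 (15.8 and 12.1), although it lies just past the end of the nearly empty Olfr543 to Olfr692 cluster. The receptor transporters Rtp1 and Rtp2 had 2 each, as did Stoml3 and Gnai2. Omp, the marker protein of mature olfactory neurons, had 1 (9.20 and 6.72), as did Gnao1 and Gnal, while Adcy3, Cnga2, Cngb1, Ano2, Trpc2 and Gng8 had 0. Per 10 kb of gene and its 20 kb flanks the list's median was 0.0871 regions, against 0.104 for other coding genes.

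In other chemosensory receptor families the shares are set beside the 52.9% of all coding genes, and no difference between them was tested. All 16 Taar genes, which encode trace amine receptors of the nose, had a region within 20 kb (Wilson 95% interval 80.6 to 100). These genes are also short (median 1051 bp). None of the 8 Fpr genes, formyl peptide receptors of which some serve in the vomeronasal organ, had a region (0 to 32.4%). Taste receptor genes had one at 8 of 40 Tas2r genes (20%, 10.5 to 34.8), which detect bitter compounds, and at 2 of 3 Tas1r genes, which detect sweet and savoury ones. The Ms4a family had one at 6 of 21 genes (28.6%, 13.8 to 49.96). Genes of such families also stand side by side and share regions, so a share of genes is not a share of independent sites.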

How the data were processed

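The study holds CUT&RUN of 4 SALL4 libraries, 2 per line, as 1 peak list each. Per the submitters' processing notes, Trim Galore 0.6.0, cutadapt 1.18, FastQC 0.11.8, BWA 0.7.17 and MACS2 2.1.1.20160309 were used, with the GRCm38 (mm10) build; filters, controls and the treatment of multiply placed reads are not given in the sources used here. In the deposited lists the score is 10 times −log10 q cut to a whole number. As deposited, fold enrichment is the ratio of pileup to local background at a summit, with 1 added to each, the −log10 p-value and the −log10 of q were set there by the authors' caller, and the summit's offset is in bp. The members, gene lists and clusters were chosen with earlier results of these data known.

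Lines that overlap were merged per list, with the highest fold enrichment kept, and regions were placed by midpoint. Genes and promoters came from RefSeq tables of the same build (GRCm38.p6), which matched all 26 pathway genes, all 13 named receptors and 1259 receptor genes with promoters. Density is regions per Mb over the stretch of each chromosome that the lists span, end to end; unplaceable sequence could not be removed. The number expected from an even spread was computed exactly in place of shuffled positions. Pileups solve fold = (pileup + 1)/(background + 1) together with the Poisson p-value, and 100% of wild-type lines were recovered within 0.0001 in −log10 p. The text names the 10 regions with the best worse rank, the 5 widest, the leading 10 that overlap a receptor gene, the 5 lowest by their better rank, the clusters with most genes and with the highest and lowest density, and the listed genes. Shares carry Wilson 95% intervals. Alternatives were the distance, the overlap, a −log10 q of at least 10, gene types, the comparison sequence, and each library left out. Base composition at summits needs a genome and was not analysed here. Python 3.11.15, numpy 2.4.6, pandas 2.3.3, scipy 1.17.1 and matplotlib 3.10.9 were used, and the scripts were tested on simulated data.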

Additional observations from a re-analysis of the deposited data

Results flagged for a closer look

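Receptor genes on the sex chromosomes entered none of the comparisons. Of 10 receptor genes on chromosome X, 1 has a consensus region within 20 kb, so 1 region lies at X-linked receptor genes (2.50 per Mb), where the knockout lists hold 0 and 0 intervals. It covers chrX:49745224-49745618 (395 bp), 17489 bp from Olfr1321, with a fold enrichment of 7.62 in wild-type replicate 1 and 6.54 in replicate 2. The wild-type lists hold 2 and 1 intervals at these genes. Among the 20 receptor genes on chromosome Y none has a region.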

How the results depend on the processing

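With a distance of 5, 10 or 50 kb in place of 20 kb, there were 137, 220 and 534 regions, the density ratio of receptor chromatin to the rest was 0.338, 0.371 and 0.540, the ratio to an even spread was 0.343, 0.377 and 0.551, and the share of receptor genes with a region was 5.64%, 9.69% and 35.0%. The width difference of 30 bp was 37 bp at 5 kb and 20.5 bp at 50 kb. With −log10 q of at least 10 in both lists there were 108 regions, the ratios were 0.456 and 0.473, the width difference was 71.5 bp, and the difference in median fold enrichment was 0.387 in place of 0.548. Of intervals that reach this q in 1 list, 100% met an interval of any strength in the other, in place of a mean of 77.3%. The share with both lists held to this q was not computed. A reciprocal overlap of 50% gave 64.99%, and summits within 100 bp gave 61.8%. At consensus regions, the widths of each list's own intervals differed by 43 and 41 bp; over all intervals of a list the medians were closer, at 234 against 219 bp in replicate 1 and 250 against 228 bp in replicate 2.

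The density ratio was 0.390 for coding receptor genes, 0.378 against the flanks, 0.335 against sequence near other coding genes and 0.803 against sequence over 20 kb from every gene. It reversed, to 1.37, against sequence over 100 kb from every gene, with receptor chromatin near other coding genes taken in. Receptor chromatin over 20 kb from other coding genes held 5.43 regions per Mb, against 4.81 in that sequence. Alternatives added after seeing the data gave 0.537 (and a width difference of 28.5 bp) with both sides over 20 kb from other coding genes, 0.505 without chromosome 7, 0.3998 in clusters of at least 5 genes, and 0.440, 0.325 and 0.467 for Olfr, Vmn1r and Vmn2r genes. The cause was not tested, beyond the sequence each alternative takes in.

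Leaving out 1 library at a time gave 333 to 479 regions, a density ratio of 0.411 to 0.428, a ratio to an even spread of 0.421 to 0.432, and a share of genes of 19.9% to 22.6%. Taking 1 list's fold enrichment at the same consensus regions gave differences of 0.341 to 0.462. The genotype difference of 8.79 on the log2 scale was 7.13 to 9.49 under its alternatives, which follows only the number of wild-type intervals each keeps, since the knockout lists stood at 0 in all of them. Same-numbered libraries share only a number; with the replicate block the difference was 8.79 and the exact sign-flip p = 0.5, the smallest that 2 pairs allow. Summit pileups as low as 4 fragments limit how weak a site could be listed.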
